A study of Mus musculus with 8 samples.

Results

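The apolipoprotein L genes of mouse liver are described here by their average level, their arrangement on chromosome 15, their sequence likeness and their promoters. The 10 genes (Apol6, Apol7a, Apol7b, Apol7c, Apol7e, Apol8, Apol9a, Apol9b, Apol10b and Apol11b) were chosen by symbol from a table of 27179 genes, with earlier results of these data known. Their average level decides only which of them are marked as without reads. RNA sequencing was done on livers of 4 wild-type mice (V227) and 4 mice homozygous for the Ppara variant V227A (A227), all adult males of the strain C57BL/6NHsd fasted for 6 h. The variant exchanges a residue of PPARα, the nuclear receptor that drives fatty acid oxidation in the fasting liver. It was introduced by base editing of zygotes, so it is carried by every tissue, and the line goes back to a single founder. Wild-type and mutant mice differ by this germline change and share strain, sex and fasting.

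Apolipoprotein L proteins differ from the secreted apolipoproteins that coat plasma lipoprotein particles. Most members of the family stay inside the cell, where they bind lipids and membranes, and several are induced by interferons. Mouse Apol9a and Apol9b are interferon-induced proteins that bind phosphatidylethanolamine, a major membrane phospholipid, and Apol7c is known from dendritic cells.

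The level used for each gene is the authors' average log2 CPM (CPM, read counts scaled to a common library total) over all 8 libraries, which pools both genotypes. Values per library were not analysed here, so the levels carry no SD, and no difference between wild-type and mutant mice was tested. The mean effective library size computed from the table was 27473997 reads, and the sizes of single libraries are unknown. Reads were found for 18937 genes (69.7% of the table), and the other 8242 sat at the lowest value, which marks a gene without reads. Ppara itself averaged 332 CPM. All 6 hepatocyte markers were above 1 CPM, from 332 CPM per kb of exon for Cps1, a urea cycle enzyme, to 29709 CPM per kb for Alb, which encodes albumin.

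Promoters are shown first for the 2 most alike pairs of the family and for 2 relatives, because the levels of near-identical genes are compared further on. The sequences are RefSeq promoters of build GRCm38.p6, and each runs 5′ to 3′ from up to 200 bases before the outermost annotated start to 20 bases past it. Capitals mark exact matches to the letters of an interferon-stimulated response element (ISRE) or, in Apol7c alone, also to those of a PPAR-type direct repeat (DR1).

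Apol9a (chr15:77411116-77411330, minus strand): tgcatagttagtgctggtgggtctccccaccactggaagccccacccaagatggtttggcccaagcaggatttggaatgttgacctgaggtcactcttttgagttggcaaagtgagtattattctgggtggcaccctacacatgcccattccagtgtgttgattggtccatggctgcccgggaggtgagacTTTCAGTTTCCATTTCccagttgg

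Apol7a (chr15:77399091-77399310, minus strand): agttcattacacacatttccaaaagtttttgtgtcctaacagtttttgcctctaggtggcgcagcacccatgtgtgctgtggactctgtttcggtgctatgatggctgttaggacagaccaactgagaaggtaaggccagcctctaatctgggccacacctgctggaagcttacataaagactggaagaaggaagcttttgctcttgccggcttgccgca

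Apol7b (chr15:77447473-77447692, minus strand): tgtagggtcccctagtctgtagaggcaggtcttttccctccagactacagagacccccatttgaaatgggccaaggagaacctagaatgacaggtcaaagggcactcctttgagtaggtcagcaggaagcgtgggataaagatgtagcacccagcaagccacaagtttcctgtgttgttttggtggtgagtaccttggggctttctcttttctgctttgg

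Apol7e (chr15:77698657-77698876, plus strand): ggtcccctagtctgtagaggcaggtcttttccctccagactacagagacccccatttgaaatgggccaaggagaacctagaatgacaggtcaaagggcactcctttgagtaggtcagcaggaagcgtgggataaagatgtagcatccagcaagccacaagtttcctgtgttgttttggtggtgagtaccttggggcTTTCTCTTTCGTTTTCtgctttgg

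Apol7c (chr15:77533297-77533516, minus strand): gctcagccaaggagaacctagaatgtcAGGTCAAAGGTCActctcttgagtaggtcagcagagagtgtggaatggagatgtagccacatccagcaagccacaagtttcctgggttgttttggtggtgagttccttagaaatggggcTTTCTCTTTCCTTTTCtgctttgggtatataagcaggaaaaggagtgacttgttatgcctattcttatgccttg

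The Apol9b stretch (chr15:77728839-77729058, plus strand) was identical to that of Apol9a over the 215 bases shown. The ISRE was searched as 2 copies of GAAA separated by 2 bases, on both strands, and the 2 matches in each of Apol9a, Apol9b, Apol7c and Apol7e overlap each other. Over the 300-base RefSeq windows, 6 of the 9 members with a promoter (Apol7c, Apol7e, Apol9a, Apol9b, Apol10b and Apol11b) held this match, beside 3.99% of 27025 genes. These 6 are not independent, since their promoters are alike in pairs. Apol9a and Apol9b were identical over 281 aligned bases, Apol7c and Apol7e 93.6% identical over 218, and Apol10b and Apol11b 92.4% over 66. The motifs were also chosen after the promoters were seen, so the count is a description only. The windows of Apol7a, Apol7b and Apol8 held none. The DR1 was searched as 2 copies of AGGTCA separated by 1 base, on both strands, and was found in Apol7c and in 13 genes in all (0.0481%). Only exact copies were searched, so a repeat with a changed letter is missed. Apol7b and Apol7e both hold a stretch that differs from this repeat by 1 letter (aggtcaaagggca). A gamma-activated site, searched as TTC and GAA separated by 3 bases, was found in Apol11b, beside 9.55% of genes. The promoters of Apol7b and Apol7e were 99.3% identical over 295 aligned bases, and the ISRE match was present in Apol7e and not in Apol7b. That identity leaves out gaps, and the match in Apol7e includes bases that are absent from Apol7b. The matches are letters in a window, and no binding was measured.

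The family was expressed mainly through 3 of the 10 listed genes. These 3 averaged 1 CPM or more, beside 42.7% of all genes of the table. Reads were found for 8 of the 10 members, beside 69.7% of all genes. Apol9b averaged 109 CPM (average log2 CPM 6.77, about 3002 reads per library), Apol7a 78.2 CPM (6.29, about 2148 reads) and Apol9a 50.5 CPM (5.66, about 1388 reads). These 3 genes held 99.8% of the family's estimated reads. Apol9b alone held 45.8%, Apol7a 32.8% and Apol9a 21.2%. The family as a whole came to 238 CPM, or 0.0238% of the reads.

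The other members were at or near the limit of detection. Apol10b had about 28 reads in total over the 8 libraries (95% exact Poisson interval 18.6 to 40.5), or 0.127 CPM. Apol7c, the gene known from dendritic cells, had about 24 reads (15.4 to 35.7) and Apol11b about 23 (14.6 to 34.5). Apol7e had about 15 reads (8.40 to 24.7) and Apol6 about 7 (2.81 to 14.4). These intervals overlap between neighbours in this order, and they cover counting error only, not the spread between mice. Apol7b and Apol8 had no reads. For a count of 0 the limit was set at 3 reads over the 8 libraries, or 0.0136 CPM, in place of the two-sided interval used for the other members.

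**Figure D1:**
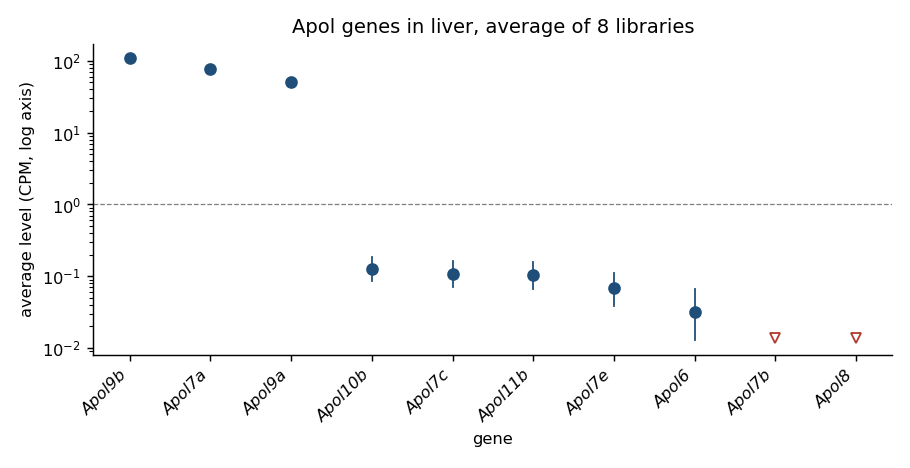
Average level of each member in CPM on a log axis. Points are averages over 8 libraries, vertical lines are 95% exact Poisson intervals for the members under 1 CPM, open triangles are the upper limits of Apol7b and Apol8, and the dashed line is 1 CPM. Apol9b, Apol7a and Apol9a lie above 50 CPM and the other members lie below 0.13 CPM.

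Levels of different genes were compared per kb of exon. Apol9b had the highest level at 60.01 CPM per kb (log2 5.91), at or above 96.1% of the genes with reads and a known length. Apol7a followed at 25.8 CPM per kb (log2 4.69), at or above 92.2% of those genes, and Apol9a at 8.49 CPM per kb (log2 3.08), at or above 81.5%. The order of Apol7a and Apol9a rested on the length used. The exons of Apol9a add up to 5953 bp, against 1530 bp for its coding transcript, and by coding transcript length Apol9a had 33.0 CPM per kb and Apol7a 32.7, with Apol9b at 69.5. The levels of Apol7a and Apol9a therefore cannot be ordered here. Even by exon length, Apol9a was 155-fold above Apol10b, the highest of the low members. The 5 low members lay between 0.00713 CPM per kb (Apol6) and 0.0548 (Apol10b), at or above 8.82% to 22.7% of genes with reads. Their values moved with the processing. Apol6 was at log2 -7.13 CPM per kb, at -5.42 with the prior count left in and at -4.94 by coding length. Apol10b and Apol7c, at -4.19 and -4.25, changed places with the prior count left in (-3.54 and -3.51), so the low members cannot be ordered firmly.

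Within the table, 4 more genes carry related symbols. Apol10a and Apol11a, which lie in the same cluster, had no reads. They are not among the 10 members and so do not enter the count of 8 members with reads. Apol7d, an antisense gene on chromosome 1 that overlaps Fn1, had about 18 reads (10.7 to 28.4). Apold1, a gene with an apolipoprotein L domain known from endothelial cells, averaged 0.843 CPM.

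All 10 members lie on chromosome 15 (GRCm38, GENCODE annotation), from Apol6 at chr15:77044729-77057106 to Apol8 at chr15:77747798-77757003, a span of 712 kb. Apol6 stands 331 kb from Apol7a, and the other 9 members span 369 kb, 7 of the 10 on the minus strand and 3 on the plus strand. The expressed genes did not form a block. Apol7a (chr15:77388219-77399110) and Apol9a (chr15:77403789-77411135) are 4678 bp apart at the left end of the cluster, and Apol9b (chr15:77729039-77736382) lies 318 kb to the right of Apol9a, between Apol7e and Apol8. Members with few or no reads fill the interval. Ppara is on the same chromosome, 7.98 Mb from Apol8.

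**Figure D2:**
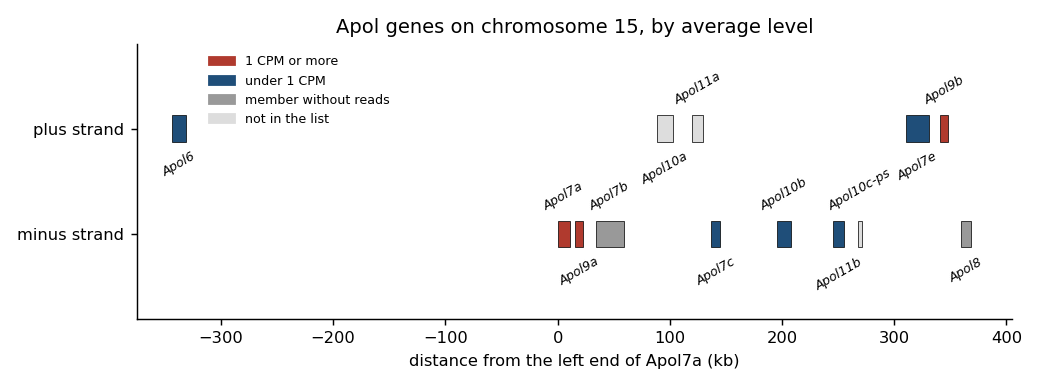
Positions of the apolipoprotein L genes of chromosome 15, as distance in kb from the left end of Apol7a, with the strand on the vertical axis and the average level as colour. Apol7a and Apol9a lie side by side, and Apol9b lies 318 kb from Apol9a beyond members with few or no reads.

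Proteins translated from the annotated coding sequences of Apol9a and Apol9b matched at 300 of 310 residues (96.8%), and those of Apol7b and Apol7e at 364 of 369 (98.6%). Percents here are of aligned residues, with gaps left out, unless the whole length is named. Apol7a matched the other Apol7 members at 82.4% to 83.7%. Apol7a is longer than these, and over its whole length the match was 72.7% to 73.9%. Apol8 matched the Apol7 members at 51.4% to 55.0% and Apol9a and Apol9b at 48.2% and 48.9%. Apol10b and Apol11b matched at 59.1%, and Apol6 matched no other member above 40.3%.

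Near-identical genes can share reads, and the treatment of reads that match several genes is not given in the sources used here. Of the distinct 50-base stretches in Apol9b transcripts, 52.3% also occur in another gene, in each case Apol9a, and at 100 bases the share was 36.7%. For Apol9a the shares were 16.5% and 11.7%. The levels of Apol9a and Apol9b are therefore uncertain as single genes, while together they came to 160 CPM, or 67.0% of the family's reads. This sum would lack any shared reads left out of the counting. The share of the family's reads held by each gene is uncertain for the same reason. Of the 50-base stretches of Apol7b, 69.3% also occur in Apol7e and 72.4% in any other gene, and for Apol7e the shares were 70.0% in Apol7b and 74.1% in any other gene. At 100 bases the shares in any other gene were 54.5% for Apol7b and 60.3% for Apol7e. If shared reads were left out of the counting, the absence of reads in Apol7b rests on the sequence that is its own, 27.6% of the 50-base and 45.5% of the 100-base stretches. For Apol7a the share was 15.5%, and Apol8 shared none, so its absence of reads is not affected by shared sequence. Of the exons of Apol7e, 13.4% overlap the antisense gene Gm36329, and 1.42% of those of Apol6 overlap Mb on the opposite strand. The strand setting of the counting is not given in the sources used here.

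**Figure D3:**
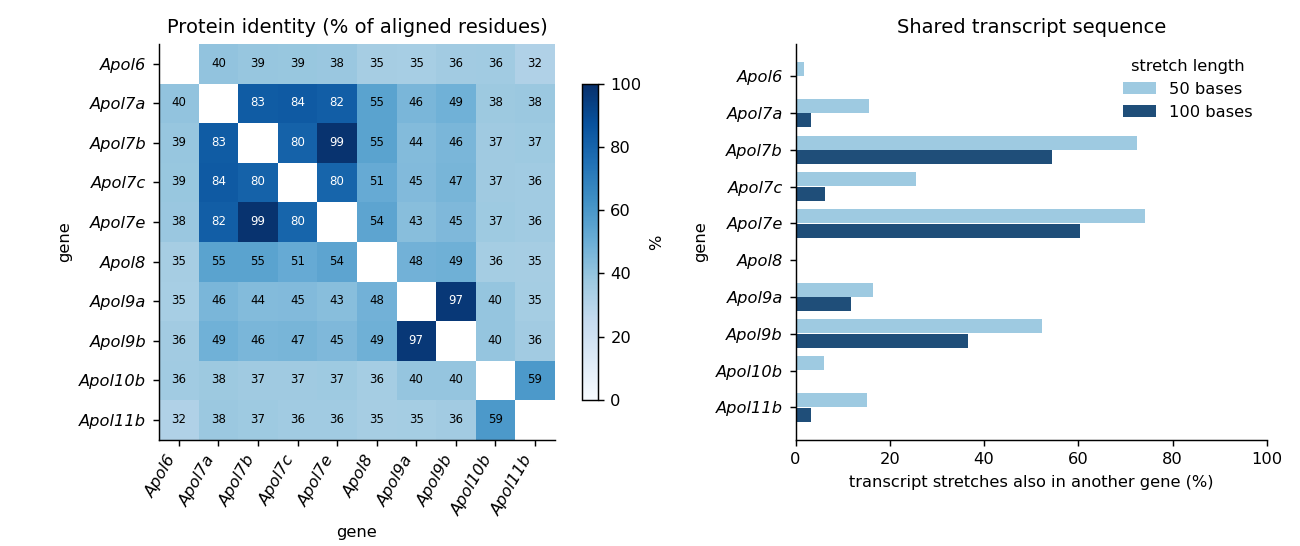
Left, percent of aligned residues that are identical for each pair of members, as numbers and shade. Right, percent of 50-base and 100-base transcript stretches of each member that also occur in another gene, highest for Apol7e (74.1%) and Apol7b (72.4%) at 50 bases.

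Against other gene groups, the 3 expressed members stood high among interferon-related genes and low among secreted apolipoproteins. These 3 were picked as the highest of the family by average level, so a high place is partly built in. They also stood high among all genes with reads and a known length. Of those genes, 96.1% lay at or below Apol9b, 92.2% at or below Apol7a and 81.5% at or below Apol9a. A high place is therefore not particular to the interferon-related lists. Of 29 interferon-stimulated genes in the table, 28 lay below Apol9b, 28 below Apol7a and 27 below Apol9a in CPM per kb. Their median was 2.22 CPM per kb, from 0.114 for Oas3, a sensor of double-stranded RNA, to 116 for Bst2, which tethers virus particles to the cell surface. Of 18 interferon-inducible GTPases, all lay below Apol9b, 17 below Apol7a and 16 below Apol9a. These GTPases ran from 0.118 CPM per kb for Gbp5 to 34.2 for Iigp1. The 5 low members of the family, at 0.00713 to 0.0548 CPM per kb, lay below the lowest gene of both lists. Apol7b and Apol8 had no reads. All 7 interferon receptor and kinase genes were above 1 CPM, from 2.21 CPM per kb for Jak2 to 24.6 for Ifnar2. By exon length, 1 of 15 secreted apolipoproteins lay below each of the 3 members, and that list ran from 0.0106 CPM per kb for Apod to 14927 for Apoa2, a major protein of high-density lipoprotein. The 7 genes of phosphatidylethanolamine handling ran from 2.35 CPM per kb for Selenoi to 139 for Pcyt2, which makes the activated ethanolamine of that pathway. Of 17 neighbouring genes on chromosome 15, 11 were above 1 CPM, beside 42.7% of all genes of the table. These neighbours ran from 0.0144 CPM per kb for Rasd2, the lowest with reads, to 46.8 for Txn2, a mitochondrial thioredoxin.

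**Figure D4:**
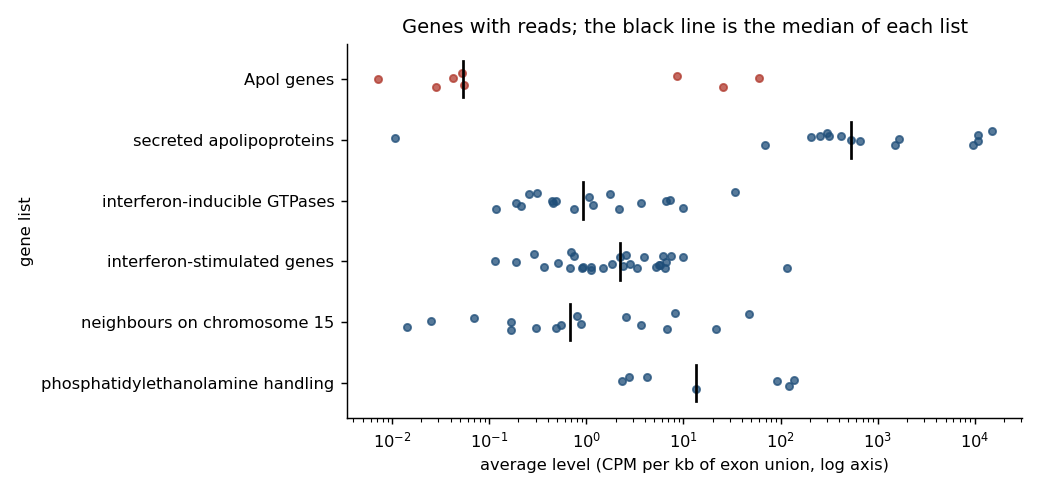
Average level in CPM per kb of exon on a log axis for genes with reads. Each point is a gene, the black line is the list's median, and the 8 members with reads split into a group of 3 above 8 CPM per kb and a group of 5 below 0.06.

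Whole liver holds several cell types, and fewer cells of a type cannot be told apart from less RNA per cell. Markers of other cells were present. All 6 Kupffer cell markers were above 1 CPM, from 1.45 CPM per kb for Adgre1 to 33.2 for Clec4f, as were all 5 endothelial, 4 cholangiocyte and 4 stellate cell markers. Endothelial markers ran from 1.27 CPM per kb (Kdr) to 15.4 (Clec4g), cholangiocyte markers from 0.176 (Krt7) to 1.996 (Krt19) and stellate cell markers from 0.963 (Reln) to 3.17 (Colec10). Dendritic cell markers ran from 0.0215 CPM per kb (Xcr1) to 0.653 (Clec9a), and Apol7c, at 0.0527, fell within that range. So did Apol7e (0.0284), Apol10b (0.0548) and Apol11b (0.0426). B cell markers ran from 0.0237 (Ms4a1) to 0.728 (Cd79b), and T and NK cell markers from 0.0249 (Cd8a) to 0.355 (Nkg7). Apol7c also fell within both of these ranges, as did Apol7e, Apol10b and Apol11b. The part of these cells in the level of any member was not tested.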

How the data were processed

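Stranded poly-A libraries of 8 mouse livers were sequenced as read pairs. The authors trimmed reads with Trimmomatic, checked them with FastQC, used RNA STAR for alignment (GRCm38) and featureCounts for gene counts, and compared genotypes in edgeR. Tool versions, annotation and strand setting are not given in the sources used here. The deposited table holds the authors' average log2 CPM over all libraries, which was used. It also holds the authors' own comparison (log2 fold change, F, p-value and adjusted p-value), which was not used. It has 0 columns of values per library, so the planned test of genotypes was not made and groups served only to describe the samples.

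The prior count, taken as 2, was removed with the table's lowest value. Totals computed this way lay within 0.1 of a whole number for 99.9% of 2378 genes with 1 to 5 reads, 87.2% of 1675 with 6 to 20 and 37.8% of 1446 with 21 to 60, so totals above 20 are approximate. The method was tested on simulated data made with the same prior count, so that test does not check the prior count itself. Levels were divided by the exon length of GENCODE vM21, found for 94.8% of genes with reads. The authors may have counted reads on another annotation, so these lengths may differ from the exons counted. Proteins were aligned globally (BLOSUM62, gap scores -11 and -1). The members and gene lists were chosen with earlier results of these data known, and the motifs after the promoters were seen. Named genes are all members, other genes with Apol symbols, the highest and lowest of each list, and Ppara. Fn1, Gm36329 and Mb, outside this rule, are named only because they overlap such a gene. Of the 10 members, 9 matched a RefSeq promoter. Python 3.11.15, pandas 2.3.3, numpy 2.4.6, scipy 1.17.1, Biopython 1.88 and matplotlib 3.10.9 were used. Intervals cover counting error only.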

Additional observations from a re-analysis of the deposited data

How the results depend on the processing

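No paired analysis was possible because the levels are averages over all libraries. Comparisons of genotypes, with and without a replicate block or a left-out library, were not run for the same reason. The count of 3 members above 1 CPM was also 3 at 0.5 CPM, with the prior count left in and with a prior count of 0.5, and 6 at 0.1 CPM. Over all genes of the table, 42.7% were at 1 CPM or more. With at least 10 reads required, 7 members in place of 8 had reads. Shares over all genes were not computed for 0.5 CPM, 0.1 CPM or 10 reads, so the counts at these limits have no background here. The level of Apol9b was log2 5.91 CPM per kb by exon length, 6.88 by coding length and 6.12 by coding transcript length, the last chosen after seeing the data. Its share of the family was 45.8% of reads, 63.5% by level per length and 51.3% by coding transcript length. It lay at or above 96.1% of genes with reads and 93.9% of those with at least 1 CPM. The levels per length of the 5 low members were higher both with the prior count left in and by coding length. These shifts follow from the divisor, the prior count or the genes counted. For the low members depth is the limit, since their totals are 28 reads or fewer.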
